A study of Mus musculus with 198 samples.

Results

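The enhancers described here carried substantial methylation at CG sites and little at CA sites in adult mouse cortex. An enhancer was a member when its mean CG methylation (mCG) over 8 animals was at least 40% and its mean CA methylation (mCA) over the same animals was below 1%. Of 32614 enhancers in the table, 32600 had all 16 animal values (8 in each context), and 4386 of those met the rule (13.5%). A further 25671 were CG-methylated with mCA of 1% or more, called mCA-richer enhancers below, and 2543 had mCG below 40%. The levels of both contexts, averaged over both genotypes, chose the members, so their low mCA is a description and not a finding. The genotype difference was not used to choose them, but a ceiling of 1% on the mean of 8 animals also caps the WT mean at 2% and with it the largest possible loss in percentage points.

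The series holds 198 bisulfite libraries, of which 8 deep ones, 1 per animal, give values per enhancer. They came from whole cortex of C57BL/6J mice aged 8 weeks: 4 Dnmt3a heterozygous knockouts (hKO), which lack 1 copy of this gene, and 4 wild-type (WT) mice. Each genotype had 2 males and 2 females. The male hKO mice were 694 and 046-2 and the female ones 651-2 and 047-1, while the male WT mice were 695 and 046-1 and the female ones 651-3 and 047-2. Per the labels the mice were littermates in standard housing, and no treatment is named. The labelled coverage was 6.4 to 7.8 genome equivalents. The number of cytosines behind a value is unknown, so no counting interval is given. Sex coincided with the sequencing instruments that the labels name, and these cannot be told apart. Whole cortex mixes neurons and glia, and a lower level in fewer cells and a lower level in every cell cannot be told apart.

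DNMT3A is a DNA methyltransferase that sets new methyl groups on cytosines. In the brain it deposits methylation at CA sites during postnatal life, when neurons gather mCA to an extent unusual among tissues, whereas CG methylation is largely copied at cell division by another enzyme, DNMT1. Enhancers are distal elements that regulate transcription, and active ones tend to lose CG methylation. The enhancers carry only a number in the table, without a position or a gene, and therefore no sequence or annotation is shown.

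**Figure D1:**
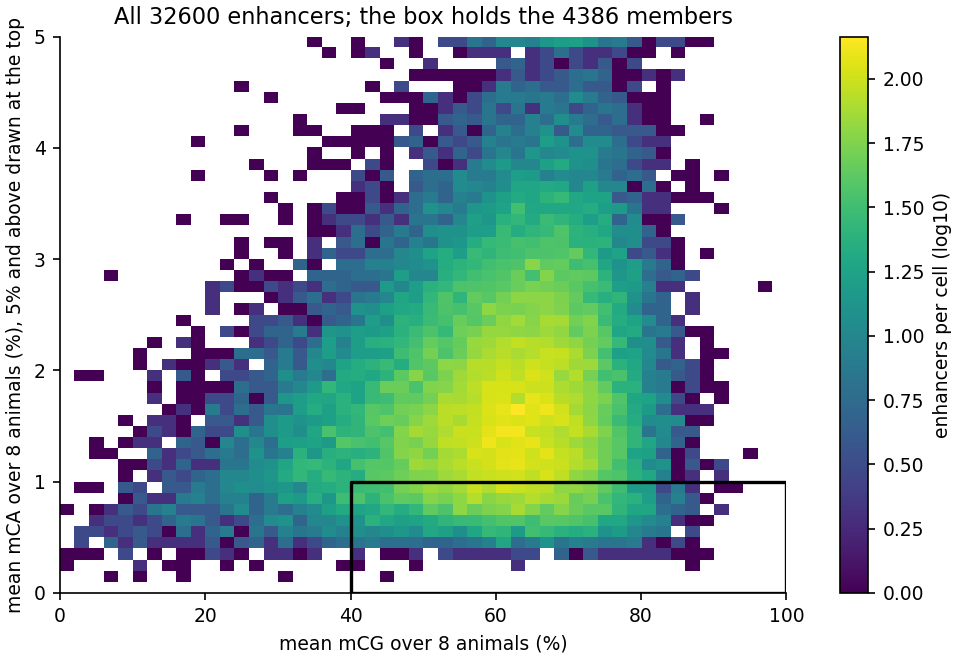
Mean mCA (%, vertical axis) against mean mCG (%, horizontal axis) over 8 animals for 32600 enhancers, coloured by the log10 number of enhancers per cell, with mCA of 5% and above drawn in the top row. The box holds the 4386 members, which lie at the lower edge of a continuous cloud and not in a separate cluster.

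The members formed the low-mCA edge of a continuous distribution. Their mean mCA over 8 animals ranged from 0.197% to the 1% ceiling with a median of 0.817%, and their mean mCG from 40.02% to 92.6% with a median of 61.8%. The members nearest the mCA ceiling, enh.11196 and enh.30303, held 0.999952% and 0.999936%, and the nearest enhancers outside, enh.41321 and enh.44886, held 1.00002% and 1.00003%. At the mCG threshold, enh.31088 and enh.6602 lay just inside at 40.0198% and 40.024%, and enh.13626 and enh.14869 just outside at 39.988% and 39.9509%. The WT mean of mCG was 62.6% in members and 64.3% in mCA-richer enhancers, both chosen with mCG of at least 40%.

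mCA of the members was lower in every hKO mouse than in every WT mouse. Averaged over all members it was 0.919% in 695, 0.881% in 046-1, 1.33% in 651-3 and 0.801% in 047-2, the WT mice. In hKO mice it was 0.596% in 694, 0.580% in 046-2, 0.759% in 651-2 and 0.448% in 047-1. The genotypes did not overlap, although the highest hKO mouse, 651-2, lay only slightly below the lowest WT mouse, 047-2. Within each genotype the mouse with code 651 was highest and that with code 047 lowest. WT mice averaged 0.981% ± 0.235 (SD, n = 4) and hKO mice 0.596% ± 0.128 (SD, n = 4), a difference of -0.386 points.

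**Figure D2:**
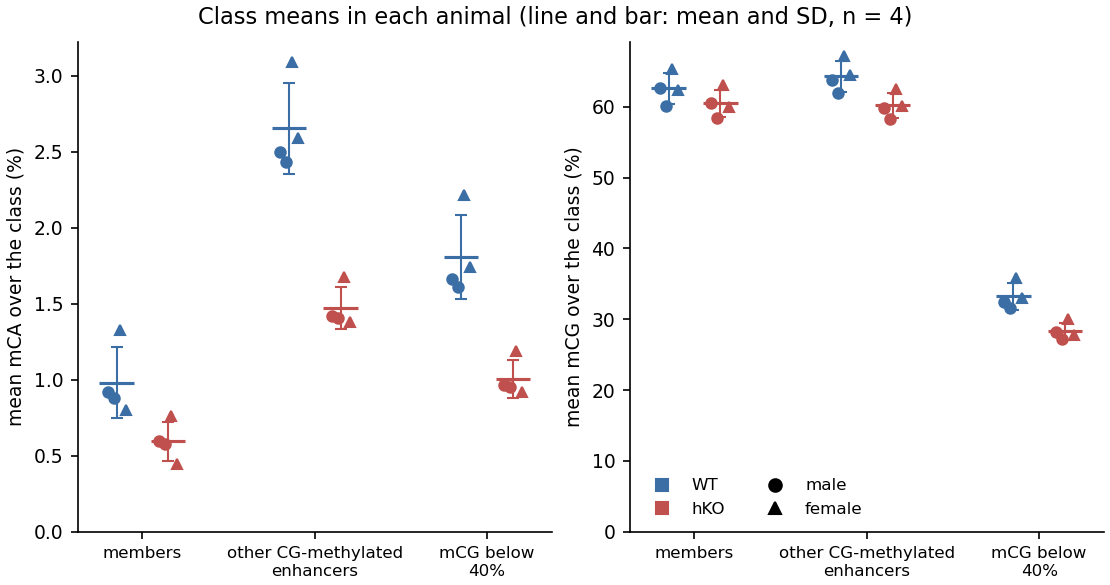
Mean mCA (left, %) and mean mCG (right, %) of each of 8 animals over the members, the mCA-richer CG-methylated enhancers and the enhancers with mCG below 40%. Points are animals (circles male, triangles female, blue WT, red hKO), lines and bars are the mean and SD of 4; member mCA separates the genotypes, from 0.448% to 0.759% against 0.801% to 1.33%, and member mCG does not.

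The median member kept 60.3% of its WT mCA in hKO cortex (quartiles 49.8% to 73.7%). mCA-richer enhancers kept a median of 55.5%, from 2.65% ± 0.299 (SD, n = 4) in WT to 1.47% ± 0.139 (SD, n = 4) in hKO. In points the median difference of members was -0.385 (quartiles -0.549 and -0.225), against -1.09 points in mCA-richer enhancers. Most members moved in 1 direction, the hKO mean being lower in 4073 of 4386 (92.9%) and higher in 313. Among all enhancers with values, 97.8% had a lower hKO mean. In males alone 3673 members were lower, in females alone 3923, and in both sexes 3309. The like shares over all enhancers by sex are not given here, so these counts cannot be read as particular to members.

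mCA fell in 544 members and rose in 0 at an adjusted p under 0.05 (limma, adjusted over 32600 enhancers). These were 12.4% of the members, where 48.9% of all enhancers fell and 0.00613% rose. Without adjustment, 1030 members had a p under 0.05 with lower mCA (61.1% over all enhancers) and 1 with higher mCA (0.0153% over all). In 715 members (16.3%) all hKO mice lay below all WT mice, and in 0 above, against 41.3% and 0.00307% of all enhancers. Members' values scattered more for their size: the median SD within a genotype was 0.356 points, 46.0% of the mean level, against 29.1% in mCA-richer enhancers. The median standard error of the genotype difference was 0.255 points in members beside the median difference of -0.385, and 0.401 points in mCA-richer enhancers beside -1.09.

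The number of falling members depended on single animals. From 12.4% of members, it went to 2.10% without hKO mouse 047-1, 2.28% without 046-2, 2.83% without 694 and 4.81% without WT mouse 651-3. The share over all enhancers under each omission is not given here, so this instability cannot be read as particular to members. Without both mice of code 651 it was 102 members and without both of code 047 it was 232, while the median share kept was 62.0% and 61.8%. Without 651-3 alone the median share kept was 68.8%. The calls also describe absolute levels. When each library's median over all enhancers was subtracted, 0 members were lower and 207 higher. Over all enhancers the median genotype difference was -0.944 points, nearly the whole of the members' median WT mean (1.001%). The turn towards higher values thus largely follows from the low levels that chose the members.

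**Figure D3:**
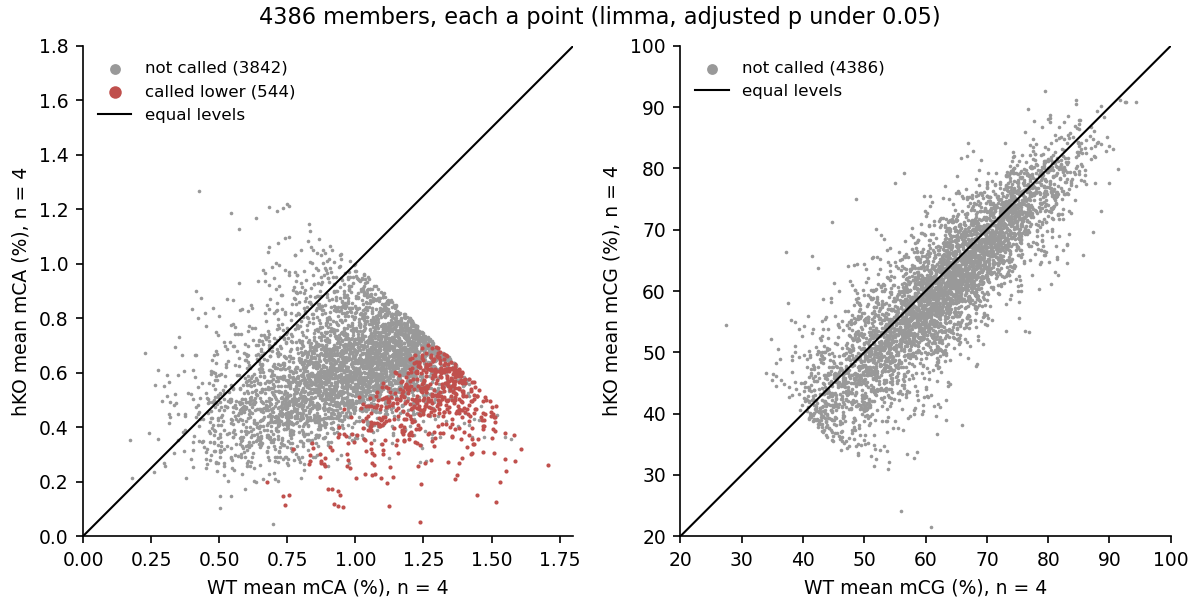
hKO mean against WT mean (n = 4 each, %) of the 4386 members for mCA (left) and mCG (right), with the line of equal levels. Red points are the 544 members whose mCA fell; the straight upper edge of the left cloud is the 1% ceiling of the rule, and in mCG 0 members passed the test.

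Among the members that fell, the largest loss in points was in enh.14904. Its mCA was 1.28%, 1.29%, 2.55% and 1.71% in WT mice 695, 046-1, 651-3 and 047-2, and 0.266%, 0.334%, 0.443% and 0% in hKO mice 694, 046-2, 651-2 and 047-1. Every WT value lay well above every hKO value, with a difference of -1.45 points (SE 0.296, limma adjusted p = 0.0106), and its mCG was 37.8% in hKO and 43.1% in WT. The next falls were enh.1881 from 1.52% to 0.127%, enh.6776 from 1.53% to 0.199% and enh.18589 from 1.55% to 0.240% (limma adjusted p = 0.0123, 0.0137 and 0.0111). They were followed by enh.3894 and enh.31192, which went from 1.59% to 0.276% and from 1.61% to 0.321%. All 6 kept their call when any 1 animal was left out, and none kept it in either sex alone or with library medians subtracted.

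Relative losses reached much further in a few members. enh.19781 kept 4.30% of its WT level, with 0.532%, 1.70%, 2.01% and 0.709% in the WT mice in the order above and a value above 0 in only 1 hKO mouse (0.213% in 046-2). enh.1881 kept 8.39% and enh.32694 9.75%. The last of these fell from 1.12% ± 0.413 (SD, n = 4) to 0.109% ± 0.0799 (SD, n = 4) (limma adjusted p = 0.0112), its hKO values of 0.133%, 0.114%, 0.191% and 0% all lying below its lowest WT value of 0.802%. Other members held equal group means: enh.21673 was at 0.949% in both genotypes, with WT mice from 0.390% to 1.53% and hKO mice from 0.480% to 1.20%. enh.27291 was at 0.684% in both and enh.7414 at 0.534% in both, and in both the WT range lay within the hKO range.

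The 544 members that fell had a higher WT level than the rest, 1.25% against 0.944%, and a lower hKO level, 0.473% against 0.613%. This contrast follows from calling them on the same values. Their mCG, which did not enter the call, was lower in hKO in 407 (74.8%) with a median difference of -2.95 points, and in the 3842 other members in 66.0% with a median of -1.98 points. Over all enhancers 78.6% were lower. The mCA level differs too, as 459 of the 544 had a mean mCA from 0.75% to 1%. Of all members in that class 70.2% were lower in mCG, with a median of -2.37 points. Both contexts come from the same libraries and the same cells. Across all members the mCA and mCG differences were only weakly related (Pearson's r 0.088, Spearman's rho 0.091).

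The lowest mCA levels lie close to the level of methylation read at CC sites, which neurons barely methylate and which also holds cytosines that escaped conversion. CC was measured in shallow cortex libraries of 8-week mice and not per enhancer. WT cortex held 0.362% ± 0.0602 (SD, n = 11) and hKO cortex 0.267% ± 0.0599 (SD, n = 7), and 6 of the 8 deep mice were among those animals. CC was thus lower in hKO as well. Its level was large beside the members' mCA but small beside that of mCA-richer enhancers. Less CC, the members held 0.329% in hKO and 0.620% in WT. The ratio of these means was 53.1%, and the same ratio was 52.6% for mCA-richer enhancers and 51.1% for those with mCG below 40%. Without the subtraction the ratios of means were 60.7%, 55.5% and 55.6%. The hKO mean lay below the hKO CC level in 72 members (1.64%) and the WT mean below the WT CC level in 28 (0.638%).

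Unmethylated lambda DNA added to the same shallow libraries reads only unconverted cytosines, and it gave another order. Lambda stood above CC, at 0.527% ± 0.109 (SD, n = 11) in WT and 0.439% ± 0.0456 (SD, n = 7) in hKO libraries. As CC also holds unconverted cytosines, lambda exceeded the unconverted share at CC sites of the cortex DNA. Which level is the right background for CA sites was not tested. Less lambda, a step added after seeing the data, the ratio of means was 34.6% in members, 48.6% in mCA-richer enhancers and 44.2% in those with mCG below 40%. By the ratio of means the members kept the largest share of the 3 classes without subtraction and with CC subtracted, and the smallest with lambda subtracted. The hKO mean lay below the hKO lambda level in 689 members (15.7%). How the members' relative loss ranks against that of other enhancers therefore depends on the background chosen, while hKO stayed below WT under each of these.

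A listed mCA of 0 was common in members and uneven between libraries. At least 1 of 8 mice was at 0 in 1133 members (25.8%), and no member was at 0 in all mice of a genotype. hKO mouse 047-1 was at 0 in 796 members (18.2%) and WT mouse 047-2 in 339 (7.73%), and the other 6 mice in 0 to 114. Enhancers with mCG below 40% were much the same, with 15.97% at 0 in 047-1 and 7.94% in 047-2. Over all enhancers these shares were 5.89% and 2.13%. Without both mice of code 047 the median genotype difference was -0.394 points, close to that of all mice.

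Relative to its level, mCG of the members differed less, the hKO mean being 96.6% of the WT mean. Averaged over members it was 62.6% in 695, 60.05% in 046-1, 65.3% in 651-3 and 62.4% in 047-2, the WT mice. In hKO mice it was 60.5% in 694, 58.4% in 046-2, 63.0% in 651-2 and 59.97% in 047-1. The genotypes overlapped, with hKO mouse 651-2 above WT mice 695, 046-1 and 047-2. WT mice averaged 62.6% ± 2.17 (SD, n = 4) and hKO mice 60.5% ± 1.93 (SD, n = 4), a difference of -2.10 points that is close to the SD within a genotype. Mice sharing a title code stood alike in level, and that SD does not take such pairing into account. Without WT mouse 651-3 the median difference was -1.22 points, and without both mice of code 651 it was -2.03.

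The mean difference in mCG was larger at the other enhancers, where no single enhancer passed either and the difference between classes was not tested. mCA-richer enhancers went from 64.3% ± 2.20 (SD, n = 4) in WT to 60.2% ± 1.76 (SD, n = 4) in hKO, a difference of -4.14 points, and those with mCG below 40% from 33.2% to 28.3%, a difference of -4.90. Pairing the mice that share a title code gave member differences of -1.65 (046), -2.30 (651) and -2.38 points (047), beside -3.62, -4.63 and -4.46 in mCA-richer enhancers. Mice 694 and 695, which share no code, gave -2.08 and -3.83. In every such set of mice the difference in members was the smaller of the pair of values.

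In mCG 0 members passed the test in either direction, and neither did any other enhancer (0.0% of 32600; the smallest adjusted p in members was 0.232, limma). Without adjustment, 283 members had lower and 61 higher mCG at p under 0.05, where 12.8% and 0.632% of all enhancers did. The hKO mean was lower in 2941 members (67.1%) and higher in 1445, against 78.6% lower over all enhancers. All hKO mice lay below all WT mice in 162 members (3.69%, against 8.25% of all enhancers) and above them in 23 (0.524%, against 0.23%). The median difference was -2.10 points with quartiles of -5.47 and 1.31, and single members spanned -39.4 to 29.2 points.

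The members with the largest mCG differences and separate groups did not pass the test. enh.37680 held 66.7%, 33.3%, 68.4% and 75% in WT mice 695, 046-1, 651-3 and 047-2, and 26.7%, 29.1%, 30.0% and 0% in hKO mice 694, 046-2, 651-2 and 047-1 (limma adjusted p = 0.237). enh.24470 went from a WT mean of 61.9% ± 4.74 (SD, n = 4) to an hKO mean of 36.7% ± 7.22 (SD, n = 4) (limma adjusted p = 0.232), with hKO mice from 26.1% to 42.1% and WT mice from 57.97% to 68.8%. In the other direction enh.37708 was at 74.9% in hKO and 48.7% in WT (limma adjusted p = 0.237), while its mCA was 0.517% and 0.894%. enh.37114 had a WT mean of 45.05% ± 8.00 (SD, n = 4) and an hKO mean of 61.4% ± 1.65 (SD, n = 4). These and the remaining members named by the same rule, enh.38392 and enh.1852, all held fewer CG sites than the median member (19.1 per kb), from 5.08 in enh.1852 to 16.0 in enh.24470.

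Within CG-methylated enhancers the mCG difference followed the mCA level step by step. Its median was -0.595 points in the 216 members with mean mCA below 0.5%, -1.63 in the 1352 from 0.5% to 0.75% and -2.37 in the 2818 from 0.75% to 1%. Above the ceiling it went on to -2.99 points from 1% to 1.5%, -3.63 from 1.5% to 2%, -4.59 from 2% to 3% and -5.46 at 3% or more. No break was seen at the 1% ceiling, where 1268 members from 0.9% to 1% had -2.48 points and 1352 enhancers from 1% to 1.1% had -2.68. WT mCG itself lay between 62.3% and 67.9% in these classes.

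The share of mCA kept was higher in the lowest classes before any background was subtracted. It was a median of 70.2% below 0.5%, 63.4% from 0.5% to 0.75% and 58.8% from 0.75% to 1%, and between 54.6% and 56.9% in the classes above. Less CC, the ratio of means was 66.7% and 55.3% in the lowest classes and 52.3% in the third, and 51.9% to 53.9% above. Less lambda, the order turned: the ratio was 24.7% from 0.5% to 0.75%, 37.6% from 0.75% to 1%, and 44.2% to 51.95% in the classes above. No ratio could be formed for the 216 members with the least mCA, whose WT mean of 0.504% lay below the WT lambda level.

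**Figure D4:**
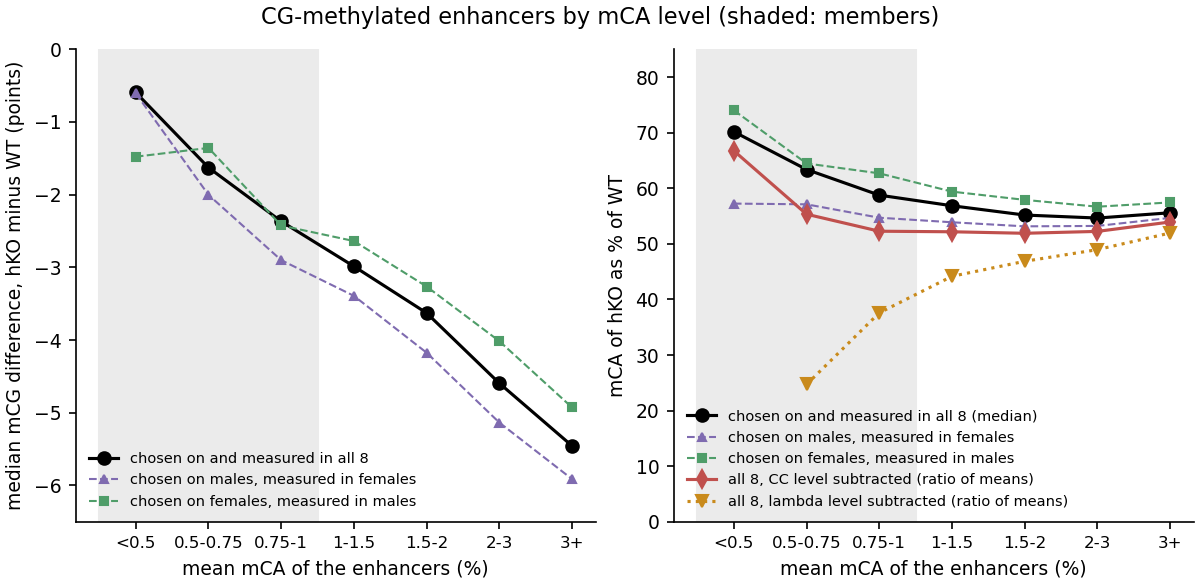
Median mCG difference (hKO minus WT, points, left) and mCA of hKO as a percentage of WT (right) of CG-methylated enhancers in 7 classes of mean mCA (%). Black is all 8 animals, dashed lines are enhancers classed on one sex and measured in the other, red has the CC level and orange the lambda level subtracted; shading marks the classes of members, where the mCG difference runs from -0.595 to -2.37 points.

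Choosing enhancers on one sex and measuring them in the other removes the part of the pattern that comes from using the same values for both. The same thresholds applied to the 4 males chose 5406 enhancers, whose median mCG difference in females was -2.48 points against -4.46 in the mCA-richer ones. Chosen on the 4 females, 3981 enhancers had -2.06 points in males against -3.64. For mCA, the median share kept was 55.6% in females (53.6% in mCA-richer enhancers) and 63.6% in males (57.8%). By class of mCA, from the lowest up to 1%, it was 57.2%, 57.1% and 54.7% in females, and 53.15% to 54.7% in the classes above. In males it was 74.0%, 64.5% and 62.7%, and 56.7% to 59.4% above. The higher share of the lowest classes was thus small in females and remained in males. Less CC, the ratio of means in females was 49.04% against 50.97%, and in males 57.2% against 54.7%. The CC level subtracted was that of mice of both sexes in each genotype. Whether the order of the classes differs by sex therefore cannot be told from these ratios. No genotype difference differed detectably by sex in single members (limma interaction, 0 of 4386 in either context and 0.0% of all enhancers). At an unadjusted p under 0.05 there were 136 members in mCA (3.10%, against 4.48% of all enhancers) and 198 in mCG (4.51%, against 4.05%).

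The mCG difference was also read within ranges of mCG. In members with mean mCG from 40% to 50% the median difference was -3.10 points, against -5.51 in mCA-richer enhancers of that range. From 60% to 70% it was -2.09 against -3.83, and at 80% or more -1.11 against -2.26. In both classes the difference was smaller where mCG was higher. The median share of mCA kept was 60.0% to 61.0% in every mCG range of the members, with no trend.

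Members were somewhat poorer in CG sites than the other enhancers. From columns of the authors' table, the site density worked out at a median of 19.1 CG sites per kb (quartiles 13.5 to 26.0) in members, 21.7 in mCA-richer enhancers and 27.6 in those with mCG below 40%. CA sites stood at 156.2, 157.4 and 152.8 per kb, so low mCA of members did not go with few CA sites. In 4 equal classes of CG density, from few to many sites, the median mCG difference of members was -2.40, -2.28, -2.11 and -1.79 points, and the median SD within a genotype was 8.09 points in the first class and 6.18 in the last. The share of mCA kept lay between 59.7% and 61.0% in all 4 classes.

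Members stood together in the enhancer listing more often than their number gives. The numbers run from 1 to 45320 with gaps, and the labels do not say whether they follow the genome. The next listed enhancer was also a member for 1758 of 4385 members (40.1%), where 13.5% of all enhancers are members. There were 1753 members without a member beside them and 103 runs of 5 or more, which held 739. Losses were alike in both: the median share of mCA kept was 59.4% in members standing alone and 61.2% in the long runs, and the median mCG difference -2.16 and -2.24 points.

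The longest run held 30 members, numbered 4353 to 4385. Averaged over the run, mCA was 0.852%, 0.891%, 1.26% and 0.728% in WT mice 695, 046-1, 651-3 and 047-2, and 0.607%, 0.497%, 0.715% and 0.493% in hKO mice 694, 046-2, 651-2 and 047-1. The genotypes again did not overlap, with 651-2 and 047-2 almost touching. Of the 30, 29 had a lower hKO mean in mCA and 23 in mCG, and 3 fell in mCA. Over all enhancers the like shares were 97.8%, 78.6% and 48.9%, and over all members 92.9%, 67.1% and 12.4%.

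Sex was compared because the rule pooled both. Only enh.25972 differed by sex among members in mCG (limma adjusted p = 0.0162; 0.0092% of all enhancers passed). It held 40.3%, 33.7%, 50.7% and 41.3% in males 695, 046-1, 694 and 046-2, and 87.2%, 91.5%, 88.2% and 78.0% in females 651-3, 047-2, 651-2 and 047-1. Every female lay far above every male, by 44.7 points on average (SE 4.41), while hKO and WT means were 64.5% and 63.2%. At an unadjusted p under 0.05 for sex in mCG there were 371 members (8.459%), against 8.405% of all enhancers. In mCA 0 members differed by sex (0.0% of all enhancers), with 123 (2.80%) at an unadjusted p under 0.05, against 5.97% of all enhancers.

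A sex difference also gathered at the end of the listing. From number 44907 on, a start chosen after seeing the values, 88 of 209 enhancers were members (42.1%, against 13.3% before it). Females had higher mCG in 83 of these 88 members (94.3%), against 67.3% of the members before. The median difference between the sexes was 10.6 points, against 2.12 points in the members before. The stretch as a whole did the same, with females higher in 199 of its 209 enhancers (95.2%, against 71.7% before it). The median over the stretch was 12.8 points, against 2.54 points before it. Mean mCG of the 88 members was 55.2%, 50.1%, 49.02% and 47.7% in males 695, 046-1, 694 and 046-2, and 65.3%, 61.5%, 62.5% and 59.7% in females 651-3, 047-2, 651-2 and 047-1. Both sexes thus lay apart whatever the genotype, but 0 of the 88 passed the test for sex, with 41 at an unadjusted p under 0.05, and 110 of all 209. Over all enhancers of the listing 8.405% had such an unadjusted p for sex in mCG. The genotype differences there were a median of -2.76 points in mCG and a median share of 63.7% of mCA kept. Sequencing instrument and sex coincided, so this difference cannot be assigned to either.

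**Figure D5:**
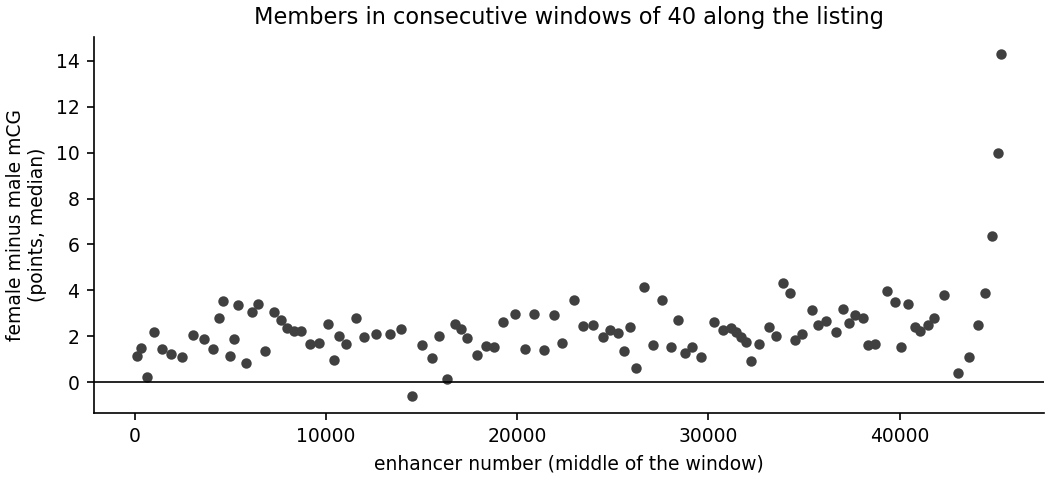
Median female minus male mCG (points) of members in consecutive windows of 40 along the enhancer numbers, the last window holding 26. Most windows lie between 0 and 5 points, and the last windows rise to 14.3 points.

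Gene bodies that met the same thresholds gave a like picture in another kind of region. There were 5693 of 21056, with mCA of 0.527% in hKO and 0.823% in WT and a median share kept of 63.4%, against 55.5% in CG-methylated gene bodies with mCA of 1% or more. Their median mCG difference was -1.02 points against -2.55, and mCA fell in 1753 of them (30.8%, where 73.4% of all gene bodies fell).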

How the data were processed

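Whole-genome bisulfite libraries of mouse cortex were used: 8 deep ones for enhancers and 26 shallow ones for the CC and lambda levels. The submitters' processing notes name mm9, BS-Seeker2 and bedtools, while versions, filters and the origin of the enhancers are not given in the sources used here. Each deposited value is the fraction of cytosines methylated per region and animal, multiplied here by 100. A further 4 deposited score columns were read as the authors' group mean times a constant per region and gave site densities. No counts or coverage are in the tables used here, so no coverage minimum or weight was applied.

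Each enhancer with all 16 values was tested, hKO against WT, on the fraction with limma 3.58.1 (eBayes with trend, R 4.3.3), Benjamini-Hochberg adjusted over 32600 enhancers with a threshold of 0.05, after a check on simulated data. Sex and its interaction with genotype were fitted likewise. The simulated data were drawn with the real means and SDs, with a few members changed and every other enhancer left unchanged. There, 0 of 100 members halved in mCA were recovered and 14 of 100 raised 3-fold. In mCG 67 of 100 halved members and 65 of 100 raised 1.5-fold were recovered. So few changes make the adjusted threshold stricter than in the real mCA data, where 48.9% of all enhancers fell. With every enhancer halved in mCA, 22.6% of members and 46.2% of all enhancers were recovered. A member without a call in mCA is therefore not shown to be unchanged. p-values measure the spread between these 4 and 4 mice. Summaries used Python 3.11.15, numpy 2.4.6 and pandas 2.3.3. Share kept is the hKO mean over the WT mean. CC and lambda were averaged per mouse and subtracted per genotype; 3 of 29 cortex libraries repeated another and were left out.

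Named enhancers were the 6 largest mCA falls that passed with separate groups; among members with a WT mean of at least 0.5%, the 3 lowest shares that passed and the 3 nearest 100%; the 3 largest mCG differences each way with separate groups; the 2 highest and 2 lowest in each level; and the 2 nearest on each side of each threshold. enh.25972 was named because 1 member passed the test for sex. Members and lists were chosen with earlier results of these data known. The start of the last stretch of the listing, the omission of both mice of a code and the subtraction of lambda were chosen after seeing the data. Alternatives were a logit scale, no trend, sex as covariate, each sex alone, each mouse left out, library medians subtracted, a replicate block, other thresholds and CC subtraction.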

Additional observations from a re-analysis of the deposited data

Results flagged for a closer look

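Of 54 groups of 4 mice tested among the named enhancers, 3 held a mouse far from the others, and chance flags about 1 in 20 groups. In mCA of enh.1881, hKO mouse 694 held 0.508% and the other hKO mice 0%. In mCA of enh.19781, hKO mouse 046-2 held 0.213% and the other hKO mice 0%. In mCG of enh.37680, hKO mouse 047-1 held 0% and the other hKO mice 26.7% to 30.0%. In mCG of enh.6602, which lies at the 40% threshold, both hKO females lay below both WT females (-7.36 points) and both hKO males above both WT males (9.69 points). The test of genotype by sex itself (limma) passed in 0 members.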

How the results depend on the processing

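The median mCA and mCG differences stayed below 0 with each mouse, sex or pair left out, with other thresholds and with members chosen on one sex. Subtraction of library medians turned the median mCA difference to 0.560 points and the median mCG difference to 1.82 points, and enh.41835 to 0.919 points in mCA (limma adjusted p = 0.0482). For mCA this turn largely follows from the low levels that chose the members. Members that fell in mCA numbered 544; there were 200 without the trend, 0 in males alone, 0 in females alone and 0 with medians subtracted (207 higher). Without both mice of code 651 there were 102, and without both of code 047 there were 232. On a logit scale there were 372, of which 368 were among the 544. For these settings the share over all enhancers is not given here. The median share of mCA kept was 32.7% with lambda subtracted (4213 members with a WT mean above it). Leaving out 1 mouse gave 92 to 774 lower and 0 to 1 higher, median mCA differences of -0.444 to -0.267 points, median shares of 54.5% to 68.8% and median mCG differences of -3.04 to -1.22 points. With other thresholds, 1.85% of 216 members fell with mCA below 0.5% (median difference -0.155 points), 26.6% of 11760 below 1.5%, and 12.0% of 2472 with mCG of 60% or more. The mCG sex difference of 1 member was 0 on the logit scale and 0 to 1 with a mouse left out. With the shared title code as a replicate block (3 pairs) 387 members fell, 238 of them among the 544. Across enhancers, deviations of mice sharing a code correlated at 0.003 to 0.074, and the main test did not pair the mice. Such a correlation leaves out the overall level of each library. In that level the codes ran alike. Member mCG in WT and hKO was 60.05% and 58.4% for 046, 62.4% and 59.97% for 047, and 65.3% and 63.0% for 651. Whether the codes pair the mice is therefore not settled. The depth behind each value is unknown, so no value could be weighted by it.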
